A study of Mus musculus with 6 samples.

Results

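*Idi1* and *Tm7sf2* encode enzymes of sterol synthesis, and *Abca1* encodes a transporter that exports cholesterol from cells. These 3 genes were taken from the array table of *Kap1* knockdown and control N2A cells by their gene symbol in the platform annotation, which gave 4 of the 6951 transcript clusters (the probe sets that each read a gene) and 3 of the 5322 named genes on the table. *Idi1* is read by a pair of transcript clusters. The genes were chosen with their response to *Kap1* knockdown known, so their own values are a description and carry no test.

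N2A is a mouse neuroblastoma line. The knockdown cells received the shA *Kap1* shRNA plasmid and the control cells a scrambled shRNA plasmid. In both groups 1.5 µg of shRNA plasmid was given with 300 ng of a hygromycin resistance plasmid, hygromycin was added after 3 days, and the resistant cells were harvested as a mixed population 7 days later (n = 3 per group). A single *Kap1* hairpin was used on the arrays, and nothing in the labels tells whether the triplicates came from separate transfections. The spread that the p-values rest on is that between these samples and could be technical. *Trim28*, the gene of KAP1, had intensities of 866, 861 and 936 in the knockdown and 3377, 3443 and 3267 in the control. On the arrays this left 26.4% of the control level. The paper reports a stronger loss with this hairpin, of transcript by qRT-PCR and of protein by Western blot.

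Cells build cholesterol from acetyl-CoA through mevalonate, isoprenoid diphosphates, squalene and lanosterol. When sterols in the endoplasmic reticulum run low, the transcription factor SREBP2 is released and activates most genes of this pathway. When sterols are plentiful, oxysterols activate the nuclear receptor LXR, which turns on *Abca1*. IDI1 interconverts isopentenyl diphosphate and dimethylallyl diphosphate, the building blocks of all isoprenoids. TM7SF2 is a sterol reductase that acts after the demethylation of lanosterol, a reaction that the lamin B receptor LBR can also carry out. ABCA1 hands cholesterol and phospholipid to apolipoproteins outside the cell.

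The sequences directly before the start sites of the 3 genes are shown because the sterol enzymes that moved together are compared in this region. Each run is the 250 bases before a start site listed by RefSeq, on the strand of the gene, and comes from chr13:8885356-8885605 (plus strand) for *Idi1*, chr19:6067851-6068100 (minus strand) for *Tm7sf2* and chr4:53159896-53160145 (minus strand) for *Abca1* of GRCm38.p6. The RefSeq span of *Abca1* reaches to base 53159988, so the part of its run nearest the start site lies inside that span. Capitals mark matches on either strand to the CCAAT box (CCAAT), the GC box (GGGCGG), the E-box (CACGTG) and a loose direct repeat of the core of a nuclear receptor site (GGTNA, any 5 bases, then GGTNA again).
Idi1: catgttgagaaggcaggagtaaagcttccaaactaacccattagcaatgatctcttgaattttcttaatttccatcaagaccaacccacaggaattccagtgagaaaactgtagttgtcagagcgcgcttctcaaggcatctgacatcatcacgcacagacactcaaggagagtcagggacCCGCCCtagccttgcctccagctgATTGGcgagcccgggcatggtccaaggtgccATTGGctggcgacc
Tm7sf2: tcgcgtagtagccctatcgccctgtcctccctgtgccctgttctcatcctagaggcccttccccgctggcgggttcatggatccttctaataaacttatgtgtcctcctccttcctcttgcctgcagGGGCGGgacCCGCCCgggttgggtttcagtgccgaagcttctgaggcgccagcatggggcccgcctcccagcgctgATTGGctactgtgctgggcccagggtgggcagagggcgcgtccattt
Abca1: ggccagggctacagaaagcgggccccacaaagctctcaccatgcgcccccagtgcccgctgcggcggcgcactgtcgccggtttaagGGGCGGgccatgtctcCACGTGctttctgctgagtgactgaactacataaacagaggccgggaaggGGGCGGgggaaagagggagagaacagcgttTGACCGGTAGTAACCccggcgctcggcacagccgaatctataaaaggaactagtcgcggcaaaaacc

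*Idi1* was lower in all 3 knockdown samples than in any control sample. On the transcript cluster with the higher mean (10403413) it had RMA intensities, which are normalised and on a linear scale, of 796, 827 and 782 in the knockdown and 2093, 1940 and 1834 in the control. The mean was 802 ± 23.0 (SD, n = 3) in the knockdown and 1956 ± 130 (SD, n = 3) in the control, or 41.0% of the control level, and the log2 fold change, knockdown minus control, was -1.28 (standard error, SE, 0.0605). The other transcript cluster (10482762), annotated with the same gene, read 660, 682 and 692 in the knockdown and 1803, 1677 and 1491 in the control, a log2 fold change of -1.29 (SE 0.0709). The groups did not overlap on either, which holds for 100% of the transcript clusters on the table and so singles out none of the genes below. Control replicate 1 was the highest and control replicate 3 the lowest on both, and most of the spread lay in the control.

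*Tm7sf2* had intensities of 341, 364 and 405 in the knockdown and 763, 771 and 706 in the control. Every knockdown sample lay below every control sample, and the closest pair was knockdown replicate 3 and control replicate 3. The mean was 370 ± 32.4 (SD, n = 3) in the knockdown and 747 ± 35.4 (SD, n = 3) in the control, which is 49.5% of the control level and a log2 fold change of -1.02 (SE 0.0711). Against the control mean, the 3 knockdown samples stood at log2 differences of -1.13, -1.04 and -0.88, a wider range than the -1.29, -1.24 and -1.32 of *Idi1* (cluster 10403413).

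*Abca1* went the other way. Its intensities were 442, 446 and 443 in the knockdown and 257, 235 and 235 in the control, so all 3 knockdown samples were higher than all 3 control samples. The mean was 444 ± 2.08 (SD, n = 3) in the knockdown and 242 ± 12.7 (SD, n = 3) in the control, 183% of the control level, with a log2 fold change of 0.87 (SE 0.0539). The knockdown samples differed by at most 4 intensity units, and control replicate 1 alone stood apart from the other control samples.

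**Figure D1:**
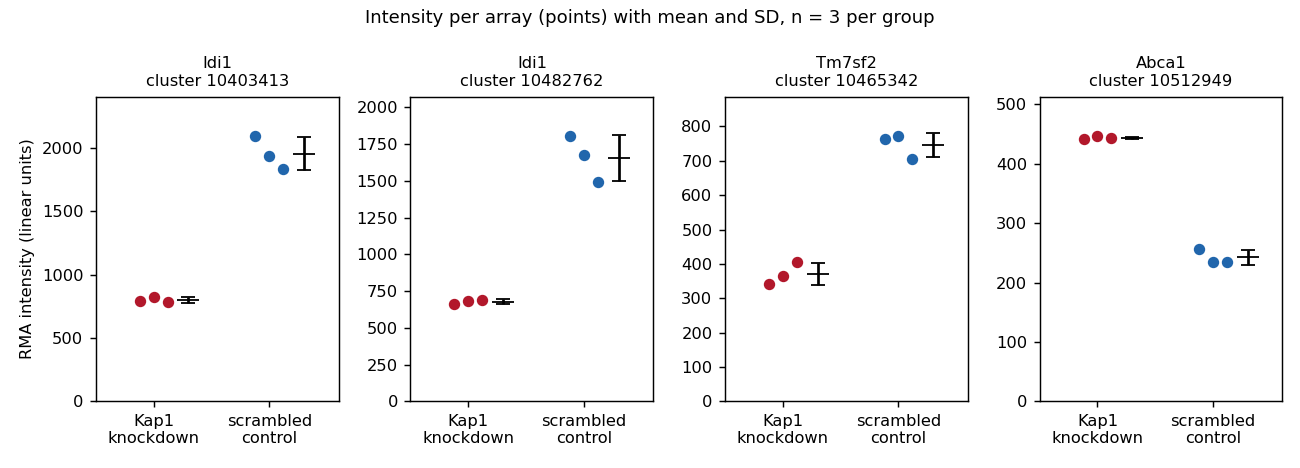
RMA intensity (linear, axes from 0) on each array for both transcript clusters of *Idi1* and for *Tm7sf2* and *Abca1*, with the *Kap1* knockdown (red) left of the scrambled control (blue); bars give the mean and SD of 3 arrays. The groups do not overlap in any panel, with *Idi1* at 41.0% and *Tm7sf2* at 49.5% of the control level and *Abca1* at 183%.

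A transcript cluster is described here as having risen or fallen where its adjusted p from limma was at most 0.05 and its fold at least 1.4 (0.485 on the log2 scale), the thresholds of the study's methods. By these, 2 of the 3 genes fell and 1 rose. Of all listed transcript clusters 32.6% passed, with 17.6% that fell and 15.0% that rose, and since the genes were picked on this comparison nothing is read from their count. The largest adjusted p on the table was 0.0365, which means that the deposited table lists only transcript clusters that already differ between the groups. Every listed transcript cluster thus met the p threshold, and the fold alone decided which rose or fell. A gene outside the table has no value here. The p-values cover the listed transcript clusters alone and are no independent support for a change. Among named genes that were lower in the knockdown, *Idi1* ranked at 98 and *Tm7sf2* at 183 of 2645 by size of change, and *Abca1* ranked at 205 of 2677 that were higher.

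Most of the sterol enzymes on the table were lower in the knockdown, and 7 of them fell past the fold of 1.4. Of 23 enzymes listed for the path from acetyl-CoA to cholesterol, 15 were on the table, and 14 of these were lower in the knockdown. None rose. Without *Idi1* and *Tm7sf2*, 5 of 13 fell (38.5%, against 17.6% of the table), 8 did not pass, and 12 of 13 were lower, against 48.7% of all transcript clusters on the table. The median log2 fold change of these 13 was -0.44, against 0.17 over the table. No listed transcript cluster had an absolute log2 fold change under 0.118. A median over the table or over a list thus depends largely on which direction held more genes, and 0.17 is no general shift. Their adjusted p ranged from 6.7e-07 to 0.00196 in limma. The median difference from the control mean was -0.46, -0.44 and -0.42 in the 3 knockdown samples, and between -0.03 and 0.05 in the control samples. In bulk RNA, fewer cells with high expression and less RNA per cell cannot be told apart.

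**Figure D2:**
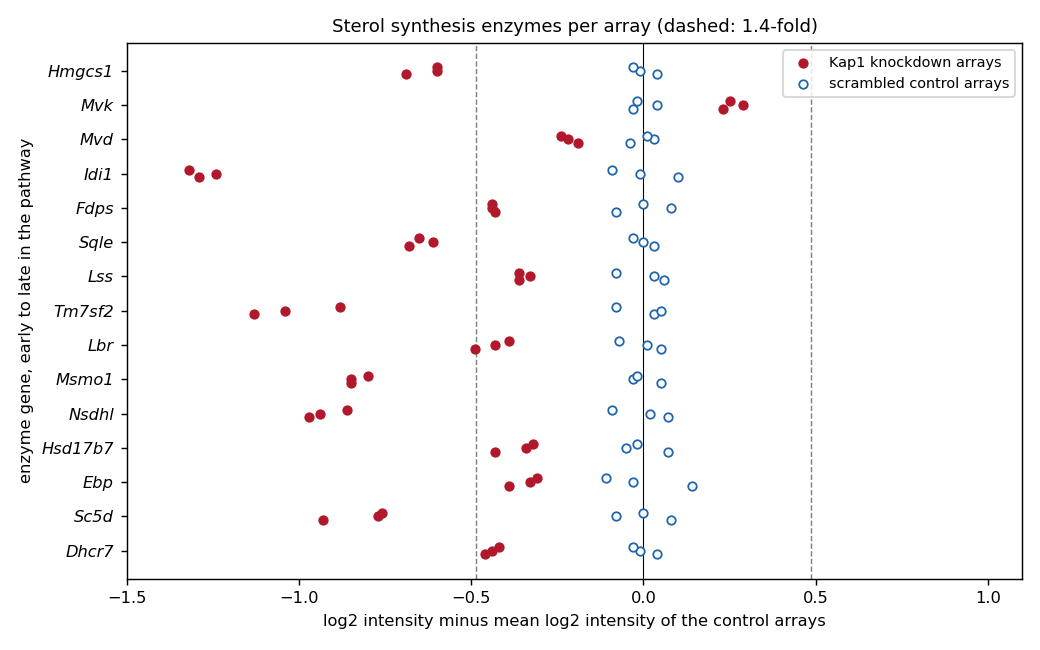
Log2 intensity of each array minus the mean log2 intensity of the control arrays for the 15 sterol synthesis enzymes on the table, from the early steps at the top to the late steps at the bottom; filled red points are *Kap1* knockdown arrays, open blue points scrambled control arrays, and dashed lines mark a 1.4-fold change. The knockdown points lie left of the control points for 14 enzymes and right of them for *Mvk*; the groups are separate for 100% of the table.

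Among the early steps, *Hmgcs1*, the synthase that makes HMG-CoA, had intensities of 1495, 1588 and 1589 in the knockdown and 2482, 2393 and 2354 in the control. It fell, with a log2 fold change of -0.63 (SE 0.0518, adjusted p = 5.08e-06 in limma). *Mvk*, the mevalonate kinase, read 441, 462 and 448 in the knockdown and 370, 388 and 372 in the control, and its log2 fold change of 0.26 (SE 0.0496) was under the threshold. It was the only listed enzyme that was higher in the knockdown. *Mvd*, which makes isopentenyl diphosphate, the substrate of IDI1, had -0.22 and stayed under the threshold too. *Fdps*, which uses the products of IDI1 to make farnesyl diphosphate, had intensities of 2113, 2091 and 2098 in the knockdown and 2682, 3017 and 2844 in the control, a log2 fold change of -0.44 (SE 0.056). Its groups were separate, as on 100% of the table, and its fold of 1.35 was just under the threshold. The log2 difference of *Idi1* was larger than those of the enzymes before and after it in the pathway. *Idi1* was chosen with its response known, so nothing is read from this contrast between genes, which was not tested.

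In the steps from squalene to lanosterol, *Sqle*, the squalene epoxidase and a control point of the pathway, fell, with intensities of 1564, 1644 and 1604 in the knockdown and 2568, 2508 and 2461 in the control (log2 fold change -0.65, SE 0.0491, adjusted p = 2.98e-06 in limma). *Lss*, the lanosterol synthase, had -0.35 (SE 0.0542) and did not pass the fold. *Lbr*, which encodes the other sterol reductase beside *Tm7sf2* and also anchors chromatin at the nuclear envelope, had intensities of 922, 964 and 991 in the knockdown and 1345, 1309 and 1236 in the control. Its log2 fold change was -0.43 (SE 0.0552), with a fold of 1.35, so both genes for this reductase step were lower and *Tm7sf2* alone passed the threshold. *Tm7sf2* was chosen with its response known, and whether the 2 differ was not tested.

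The enzymes that remove the methyl groups after this reduction held the largest differences outside the chosen genes. *Nsdhl*, a sterol dehydrogenase, fell, with intensities of 685, 703 and 739 in the knockdown and 1410, 1362 and 1265 in the control (log2 fold change -0.92, SE 0.0588, adjusted p = 9.67e-07 in limma). *Msmo1*, the methylsterol monooxygenase, fell, with intensities of 1451, 1451 and 1509 in the knockdown and 2713, 2561 and 2594 in the control (log2 fold change -0.83, SE 0.0502, adjusted p = 6.7e-07 in limma). Each knockdown sample lay well below the lowest control sample for both. *Hsd17b7*, the ketoreductase of the same demethylation cycle, had -0.36 (SE 0.0561) and did not pass.

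Of the last steps, *Sc5d*, a sterol desaturase, fell, with intensities of 559, 627 and 630 in the knockdown and 1126, 1011 and 1063 in the control (log2 fold change -0.82, SE 0.0659, adjusted p = 4.48e-06 in limma). *Ebp*, a sterol isomerase, had -0.35 (SE 0.0683), and *Dhcr7*, which carries out a final reduction to cholesterol, had -0.44 (SE 0.0487). The fold of *Dhcr7* was 1.36, and like *Ebp* it did not reach the threshold. The other 8 listed enzymes, *Pmvk*, *Fdft1* and *Cyp51* among them, have no value here, which says nothing about whether they changed. The 15 enzymes on the table lie on 11 chromosomes.

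Among genes that sense sterols and take them up, *Lima1* and *Mylip* fell and *Scarb1* rose. Of 28 listed genes 11 were on the table, where 2 fell (18.2%, against 17.6% of the table), 1 rose (9.09%, against 15.0%) and 8 did not pass the fold. *Srebf2*, which encodes SREBP2, had intensities of 2604, 2627 and 2757 in the knockdown and 3366, 3218 and 3302 in the control, a log2 fold change of -0.31 (SE 0.0503). It was lower in all 3 samples and under the threshold. *Mbtps1*, the protease that makes the first cut in SREBP proteins, had -0.46 and did not pass either. *Insig1*, an SREBP target whose product retains SREBP in the endoplasmic reticulum, had -0.27, and its relative *Insig2* had 0.35, with neither past the fold. *Lima1*, an actin-binding protein that also takes part in cholesterol absorption in the intestine, fell, at 156, 154 and 147 in the knockdown and 386, 372 and 372 in the control (log2 fold change -1.31, SE 0.0502, adjusted p = 4.54e-08 in limma). *Mylip*, an LXR target whose product marks lipoprotein receptors for degradation, also fell (-0.59, SE 0.0666). *Scarb1*, a receptor for high density lipoprotein, rose, with 2304, 2418 and 2487 in the knockdown and 1624, 1632 and 1674 in the control (log2 fold change 0.55, SE 0.0512). The median of the list was -0.27. *Srebf1* and the LXR genes *Nr1h2* and *Nr1h3* were not on the table.

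Around *Abca1*, the list of sterol export and lipoprotein genes had 8 of 16 members on the table, of which 3 rose, 2 fell and 3 did not pass. Its median log2 fold change was -0.36, opposite in sign to *Abca1*. Without *Abca1*, 2 rose (28.6%, against 15.0% of the table) and 2 fell (28.6%, against 17.6%). *Abca5*, a lipid transporter of lysosomes and related organelles, rose, with 146, 161 and 165 in the knockdown and 89, 88 and 97 in the control (log2 fold change 0.78, SE 0.0648, adjusted p = 5.27e-06 in limma). *Clu*, the apolipoprotein and chaperone clusterin, also rose, to 6.04-fold of the control. *Pltp*, the phospholipid transfer protein and in other cells an LXR target, fell, with 225, 227 and 233 in the knockdown and 537, 453 and 512 in the control (log2 fold change -1.13, SE 0.0671, adjusted p = 6.21e-07 in limma). *Abca2*, a transporter found in lysosomes, fell as well (-0.52). *Abca3* (-0.39), *Lcat* (-0.47), which esterifies cholesterol in plasma, and *Lpcat3* (-0.32), a phospholipid acyltransferase and LXR target, did not pass the fold. Among the LXR targets named here, *Abca1* was higher and *Mylip*, *Pltp* and *Lpcat3* were lower in the knockdown. No list of LXR targets was set beforehand, so these genes are no full set, and the activity of LXR was not tested. *Abcg1*, *Abcg4* and *Apoe* were not on the table.

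Of genes for sterol storage, hydroxylation and binding, 12 of 25 were on the table, and 1, the oxysterol-binding protein relative *Osbpl5* (-0.67), fell (8.33%, against 17.6% of the table), while 0 rose past the fold, against 15.0% of the table. The median was 0.21. *Cyp46a1*, the neuronal enzyme that makes an oxysterol from cholesterol and so opens its way out of brain cells, had intensities of 150, 156 and 179 in the knockdown and 103, 117 and 131 in the control. Its log2 fold change was 0.47 (SE 0.095), just under the threshold. Its groups did not overlap, which holds for 100% of the table.

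In the branch that draws isoprenoids away from sterols, most genes did not pass the fold. Of 18 listed genes for prenylation and other isoprenoid products 10 were on the table, 8 of them higher in the knockdown (51.3% of all transcript clusters were) but 7 of these under the fold. Their median log2 fold change was 0.31. Only *Chml* (0.64), a Rab escort protein, rose past the fold, and *Zmpste24* (-0.51), a protease that processes prenylated lamin A, fell, so 10.0% rose and 10.0% fell, against 15.0% and 17.6% of the table. *Trit1* (0.48), which attaches an isoprenoid group to tRNA, *Chm* (0.47), a Rab escort protein, and *Coq2* (0.40), which acts in ubiquinone synthesis, were under the threshold. These calls depended on the scaling, with 3 genes above the fold and 0 below it after median centring.

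Fatty acid synthesis enzymes, many of which are targets of the SREBP family, were lower for 12 of the 13 on the table, out of 19 listed, where 48.7% of all transcript clusters were lower. Of the 13, 3 fell (23.1%, against 17.6% of the table) and 1 rose (7.69%, against 15.0%), and the median was -0.31. *Elovl7*, an elongase, fell, with 486, 601 and 597 in the knockdown and 1390, 1215 and 1247 in the control (log2 fold change -1.20, SE 0.0895), as did the elongase *Elovl4* (-0.76) and *Fads3* (-0.69), of the fatty acid desaturase family. *Acacb*, an acetyl-CoA carboxylase of mitochondria, rose (0.54). The classical synthesis genes *Fasn* (-0.22), *Acly* (-0.19) and *Scd2* (-0.17) differed by less than the fold. *Acly* had the same value, 4476, on all 3 knockdown arrays, a kind of tie seen in 39 transcript clusters of the unrounded table, which is no sign of precision.

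**Figure D3:**
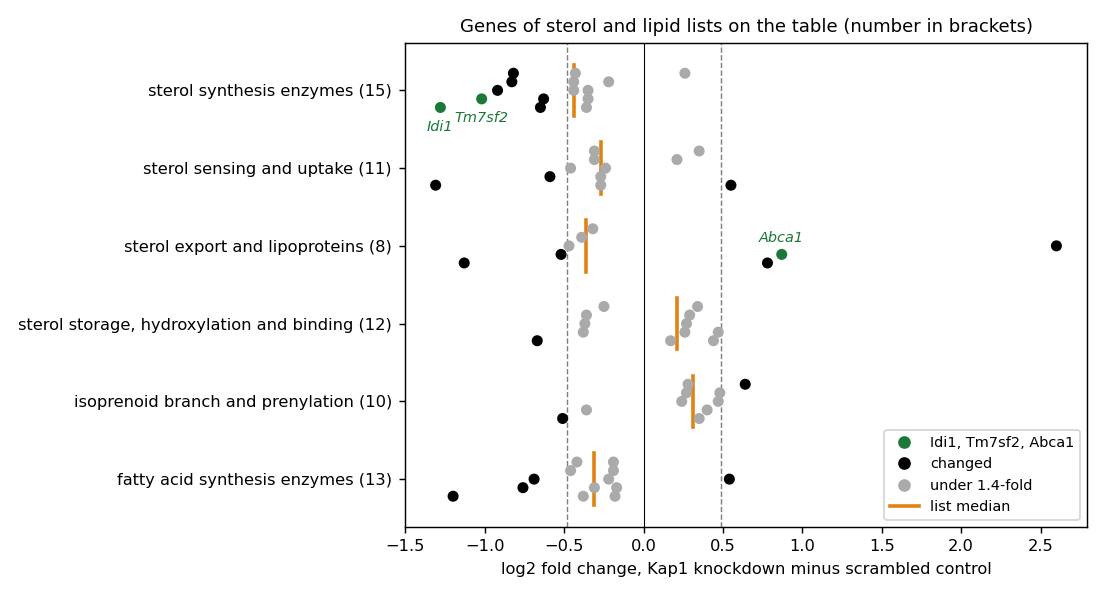
Log2 fold change, *Kap1* knockdown minus scrambled control, of each gene on the table in 6 sterol and lipid lists, with the number of genes in brackets; green marks *Idi1*, *Tm7sf2* and *Abca1*, black other genes that rose or fell, grey genes under a 1.4-fold change (dashed lines), and orange the median of each list. The medians lie at -0.44 with *Idi1* and *Tm7sf2* included for sterol synthesis, -0.36 for export, 0.31 for the isoprenoid branch and -0.31 for fatty acid synthesis.

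Start site sequences were compared next. The windows used here covered 13 of the 15 sterol enzymes on the table, and those of *Fdps* and *Sqle* were not analysed. Each of the 13 genes had at least 1 match to CCAAT in the 250 bases before a start site, as had 13 of their 15 windows (86.7%), against 33.8% of all 32851 windows, 35.4% of those of protein-coding genes, 35.4% of those of named genes on the table, 33.6% of those of genes that fell and 41.0% of those of genes that rose. The GC box stood in 14 of the 15 windows (93.3%), against 58.1% of the windows of genes on the table. CCAAT, which the factor NF-Y binds, was found in 7 of 13 windows (53.8%) for sterol storage, 5 of 13 (38.5%) for sensing and uptake, 5 of 12 (41.7%) for fatty acid synthesis, 3 of 12 (25.0%) for the isoprenoid branch and 3 of 7 (42.9%) for export. *Mvk*, the enzyme that was higher in the knockdown, had 5 matches, against 1 to 3 in each of the other 12 enzymes. An exact search for a sterol response element, the site known for SREBP proteins, matched 0 of the 15 windows and 0.0731% of all windows, and no match says only that these letters were not found. A match is a description of the letters and not a binding site.

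In *Idi1* the CCAAT matches, both on the opposite strand and so read ATTGG, ended 41 and 10 bases before the start site, and in *Tm7sf2* the single match ended 43 bases before it. The matches nearest to the start site in the other enzymes that fell are shown with 10 bases on each side, the match in capitals, at chr13:119690296-119690320 (plus strand) for *Hmgcs1*, chr8:64733619-64733643 (minus strand) for *Msmo1*, chrX:72918491-72918515 (plus strand) for *Nsdhl* and chr9:42264310-42264334 (minus strand) for *Sc5d* of GRCm38.p6.
Hmgcs1: cccgcctctcATTGGctgaaagcgg
Msmo1: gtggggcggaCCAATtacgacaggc
Nsdhl: gactagcctcATTGGgcaaaatcat
Sc5d: ccggctgctgATTGGccggctgcct

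The *Abca1* window had no CCAAT. It held an E-box 147 to 142 bases before the start site, a motif found in 6.02% of all windows, and GC boxes at 163 to 158 and 97 to 92 bases. The loose direct repeat lay on the opposite strand 67 to 53 bases before the start site, with the letters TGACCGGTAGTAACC on the strand of the gene. This pattern, chosen after the sequence was seen, is the arrangement that LXR with its partner RXR is known to bind. It occurred in 0.621% of all windows and 0.365% of those of named genes on the table. It was not particular to *Abca1*, as 2 of 12 windows (16.7%) of the fatty acid synthesis list, most of whose genes were lower, also held it.

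The direction of change also differed between the chromosomes that hold the 3 genes, and the other chromosomes were not examined one by one. Of named genes on the table, 63.1% of 203 on chromosome 13, which holds *Idi1*, and 62.5% of 208 on chromosome 19, which holds *Tm7sf2*, were lower in the knockdown, against 49.7% of all named genes. On chromosome 4, which holds *Abca1*, 61.0% of 310 were higher and 39.0% lower. The part of this in the 3 results was not tested. Because the 3 genes were chosen with their change known, a smaller difference in the genes near them says little. The nearest genes on the table on either side were not direct neighbours, and each had a smaller difference than the gene itself. For *Idi1* these were *Pfkp* (-0.27), with 12 RefSeq genes outside the table in between, and *Larp4b* (-0.18), with 9. For *Tm7sf2* they were *Syvn1*, which fell (-0.56), with 4 in between, and *Sac3d1* (-0.33), with 6. For *Abca1* they were *Tmeff1* (-0.17), with 60 in between, and *Tmem38b*, which rose (0.61), with 12.

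The named genes with the most similar profile were found by the distance between log2 values over the 6 arrays, each gene set against its own control mean, where 0 would be the same profile. Nearest to *Idi1* were *Tbx20* (0.087), *Dhh* (0.089) and *Dock11* (0.102). The second *Idi1* transcript cluster was 0.107 from the first. Nearest to *Tm7sf2* were *Kif21b* (0.089), *Neo1* (0.104) and *Tjp1* (0.124), and nearest to *Abca1* were *Rnf14* (0.070), *Aldoc* (0.073) and *Myo6* (0.083). No gene of the sterol lists was among these. The nearest genes of *Idi1* and *Tm7sf2* were all lower in the knockdown and those of *Abca1* higher, as the measure requires.

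Marker genes of N2A and of other cell types were read beside these results. Of 14 markers of sympathetic neuroblasts and neurons 12 were on the table, of which 1 rose and 6 fell. Of all listed transcript clusters, 15.0% rose and 17.6% fell. The summed intensity of the 12 markers was 25629 to 26850 in the knockdown and 29427 to 30704 in the control. Of 8 macrophage and microglia markers only *Cd68* was on the table, at 94 to 102 in the knockdown and 132 to 149 in the control, and it did not pass the fold. Of 7 fibroblast markers 2 were on the table, at a summed 217 to 220 in the knockdown and 201 to 214 in the control, where *Pdgfrb* had a log2 fold change of 0.38 and *Pdgfra* one of -0.23, neither past the fold. The astrocyte list had 1 of 5, *Sox9*, which fell, at 435 to 533 in the knockdown and 1097 to 1138 in the control. The Schwann cell list had 2 of 6, *Egr2* and *Erbb3*, which rose, with a summed 518 to 623 in the knockdown and 305 to 334 in the control. The astrocyte and Schwann cell lists had too few genes with values to compare with the 17.6% and 15.0% above. The part of these marker shifts in the sterol results was not tested.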

How the data were processed

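RNA from 3 *Kap1* knockdown and 3 scrambled control samples of N2A cells was hybridised to Mouse Gene ST arrays, 1 per sample, with 200 ng RNA labelled. The deposited values are linear intensities after the authors' RMA (Robust Multi-array Average) normalisation with GeneSpring, rounded to whole numbers in the table used here. An unrounded table of the same 6951 transcript clusters differed by at most 0.5. Intensities ran from 22 to 18348, and array medians from 507 to 528 in the knockdown and from 505 to 553 in the control. The genome build behind the transcript clusters, and the rule by which they were listed, are not given in the sources used here. The number of arrays limits the precision.

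After a log2 transform, the groups were compared with limma 3.58.1 (lmFit, eBayes; R 4.3.3), with Benjamini-Hochberg adjustment across the 6951 listed transcript clusters. The fit was tested on simulated data in which most transcript clusters were unchanged. The table lists only those that differ, so this checked the code and lends the calls no support. A gene on several transcript clusters was read from that with the highest mean. Of the transcript clusters, 5733 had 1 gene annotated, 384 several and 834 none, and 5726 found a RefSeq gene through the gene identifier. Sequences are from RefSeq (GRCm38.p6). Motifs were counted with Python 3.11.15, numpy 2.4.6 and pandas 2.3.3.

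The genes and lists were chosen with earlier results of these data known. Named were the 3 genes, *Trim28*, all sterol synthesis enzymes on the table, up to 6 changed genes of each other list, the 3 most similar genes and the nearest listed neighbours; other genes were named after their values were seen. Alternatives were the unrounded table, centring each array on its median, quantile normalization, a replicate block, trended and robust eBayes, dropping clusters whose mean log2 intensity stayed under 6 in each group, adding 16 before the log, leaving out each array, stricter thresholds (a fold of 2, or adjusted p of 0.01) and letting any cluster of a gene count. Counting without *Idi1* and *Tm7sf2* was added after the data were seen.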

Additional observations from a re-analysis of the deposited data

How the results depend on the processing

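The log2 fold changes of the 3 genes kept their direction under every alternative run, at -1.33 to -1.24 for *Idi1*, -1.08 to -0.96 for *Tm7sf2* and 0.83 to 0.92 for *Abca1*. The count of 7 fallen and 0 risen sterol synthesis enzymes was the same when any array was left out and was 5 and 0 without *Idi1* and *Tm7sf2*. At a fold of at least 2 it was 2, *Idi1* and *Tm7sf2* themselves, and the other counts dropped too, to 1 risen and 1 fallen for export, 0 and 1 for sensing and uptake, 0 and 0 for storage, 0 and 0 for the isoprenoid branch, 0 and 1 for fatty acid synthesis, and 153 and 352 over the table. After median centring the isoprenoid branch had 3 risen and 0 fallen, the same as after quantile normalization, and storage had 1 risen under either. Quantile normalization left 1 fallen export gene. Leaving out 1 array gave 1 to 3 risen and 0 to 1 fallen genes in the isoprenoid branch, with 3 risen without control replicate 1 or 2, 2 risen without knockdown replicate 1 or 3, and 0 fallen without control replicate 1. It gave 0 to 1 risen in storage, with 1 without knockdown replicate 1 or 2 or control replicate 3. Over the table, median centring gave 1217 risen and 1123 fallen transcript clusters, against 1043 and 1225 as reported. The cause of these changes was not tested.

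The replicate numbers are shared by the groups. Deviations of same-numbered arrays from their group means correlated at -0.168, -0.132 and 0.0422 across transcript clusters. Those of differently numbered arrays reached 0.196. No pairing by number showed in these values, which cannot tell whether same-numbered samples were handled together. With the replicate number as a block, 7 sterol synthesis enzymes fell and 0 rose, and the table had 1043 risen and 1225 fallen transcript clusters. In this balanced design a block leaves each fold as it was. The fold alone decided the calls, so these counts could hardly differ from those without the block.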
